A study of Mus musculus with 16 samples.

Results

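The genes described here encode splicing factors and proteins of the spliceosome. They are the protein-coding genes of the authors' gene table whose symbols begin with Srsf, Hnrnp, Snrp, Sf3a, Sf3b, Prpf or U2af. The rule took 70 rows with 68 symbols. Srsf1 stands in that table a second time on a patch sequence with the same values, and a second identifier (ENSMUSG00000109378, called Gm49396 in GENCODE M21) also carries the symbol U2af1l4. In the count data the set comes to 69 of 45038 genes. They were measured in rods sorted from retinas of C57BL/6J mice that carry green fluorescent protein behind the promoter of Nrl (Nrlp-GFP). All ages share this reporter, no age has a further allele or agent, and the label therefore covers cells in which that promoter is active. The ages were 3, 12, 18 and 24 months (3M, 12M, 18M and 24M), with 4 libraries of each. The design text calls them biological replicates. No source used here says whether 1 library stands for 1 mouse or a pool. The comparison asked how the transcript levels of these genes differ between older rods and rods of 3M.

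The spliceosome removes introns from pre-mRNA. It is built from small nuclear RNAs packed with a ring of Sm proteins and with particle-specific proteins, and it is completed by factors that find the branch point, the polypyrimidine tract and the splice sites. SR proteins and hnRNP proteins bind exons and introns and steer which sites are used. Many of these genes also limit their own output, because an exon with an early stop codon or a retained intron can be spliced into their transcripts, which are then degraded or kept in the nucleus. Mutations in several widely expressed tri-snRNP genes cause dominant retinitis pigmentosa in humans, a disease in which rods degenerate first.

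Total estimated counts ran over 20579144 to 28791777 per library. The rods' own transcripts were abundant at all ages: the rod transducin gene Gnat1 averaged 4129 ± 872 CPM at 24M and 5156 ± 460 CPM at 3M (SD, n = 4 each), and the rod transcription factor gene Nrl 570 ± 98.0 CPM at 24M and 708 ± 33.8 CPM at 3M. CPM is estimated counts scaled to library size with TMM factors. Of 14 rod markers, 13 lay below 0 on the log2 scale at 24M against 3M, with a median of -0.23 and a sum of 34910 to 41867 CPM at 24M and 43218 to 46470 CPM at 3M. The genes of a 10-gene microglial marker list summed to 4.11 to 5.68 CPM at 24M and 3.07 to 4.66 CPM at 3M, while a 12-gene Müller glial list summed to 178 to 298 CPM at 24M and 134 to 271 CPM at 3M, with a median log2 fold change of 0.44 over 10 tested genes. Of 8 tested cone markers 1 was called, Gnb3, which was higher at 24M. The part of other cell types in the results was not tested. Libraries 12M replicate 4, 18M replicate 3 and 24M replicate 3, which the authors' normalized table does not hold, stood apart from the others of their age in how CPM depended on transcript length. The slope of log2 CPM on log2 length, taken relative to the average library, was -0.081 in 24M replicate 3 and -0.047 in 12M replicate 4, against 0.084 in 18M replicate 3. Of the 67 splicing genes tested, 53 had their highest or lowest value in 1 of these 3 libraries (79.1%, against 77.8% of all genes tested). 24M replicate 3 alone held the lowest value of 26 of them.

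The levels of these genes, in TPM, which corrects for transcript length as well as library size, spanned a wide range in rods. Hnrnp genes were the most abundant group and made up 56.2% of the summed TPM of the 69 genes, with a median of 88.8 TPM per gene. Hnrnpu, an RNA-binding protein of the nuclear scaffold, had the highest level, a mean of 322 TPM over the 16 libraries with a range of 159 to 533 TPM. Hnrnpa2b1 followed with 279 TPM, Hnrnpk, which binds C-rich RNA, with 252 TPM, and the SR protein gene Srsf5 with 244 TPM. Their ranges over libraries overlapped, so the order among these 4 genes is not separated from the spread. TPM was summed over all transcripts of a gene, those not protein-coding included. Such transcripts held 70.8% of the counts of Hnrnpu, 63.8% in Srsf5, 43.5% in Hnrnpk and 37.8% in Hnrnpa2b1, so the order is not one of coding mRNA. The Srsf group had a median of 42.0 TPM, the U2af group 31.3 TPM, the Prpf group 29.2 TPM and the Sf3 group 26.4 TPM. The Snrp genes were the lowest group, with a median of 11.1 TPM, and Snrpb, which encodes the Sm proteins B and B', led them with 32.1 TPM. Highest in the remaining groups were Sf3b2 with 78.0 TPM, U2af2 with 49.0 TPM and Prpf38b with 97.7 TPM. The lowest gene of all was Srsf12 with 0.771 TPM. Srsf12 and Snrpg, the Sm protein G with 4.43 TPM, missed the limit of 5 CPM in at least 4 libraries and were not tested.

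**Figure D1:**
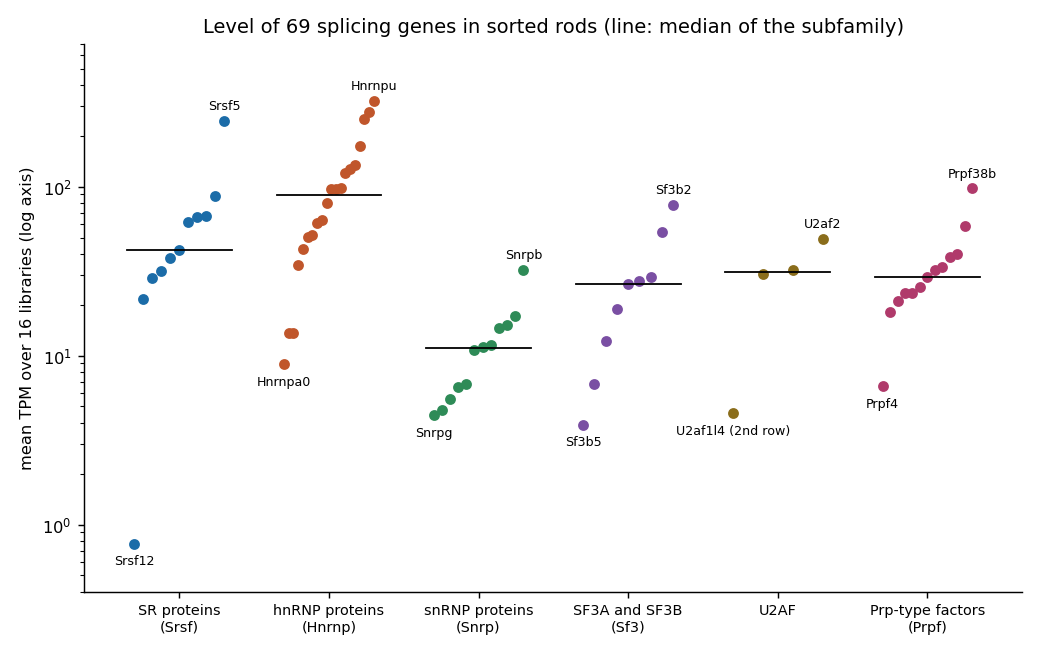
Mean TPM over the 16 libraries (log axis) of the 69 splicing genes, 1 point per gene, by subfamily, with the subfamily median as a line and the highest and lowest gene named. The Hnrnp median of 88.8 TPM is the highest and the Snrp median of 11.1 TPM the lowest.

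No splicing gene passed the test at any age. In edgeR's quasi-likelihood test with Benjamini-Hochberg adjustment over 12177 genes, 0 of 67 had an adjusted p under 0.05 at 12M against 3M, where 1.39% of all genes tested were called. The count was also 0 at 18M, where 2.64% of all genes were called, and 0 at 24M, where 4.25% were called. An F-test among the 4 ages called 0 splicing genes and 2.82% of all genes, and a linear term in months called 0 splicing genes and 4.8% of all genes. At an unadjusted p under 0.05 there were 4 splicing genes at 12M, 2 at 18M, 12 at 24M, 5 in the F-test and 9 in the linear term. These shares were 5.97%, 2.99%, 17.9%, 7.46% and 13.4%, against 9.15%, 12.4%, 14%, 10.8% and 14.6% of all genes. DESeq2 called 0 splicing genes at 12M (2.57% of all genes) and at 18M (4.34%), 3 at 24M (6.34%), 1 in the F-test (5.46%) and 1 in the linear term (6.5%). The lowest adjusted p by edgeR was 0.0593, for Snrpa1 at 24M.

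The intervals around these differences were narrow enough to bound them. At each of the 3 older ages the 95% interval of the fold change lay within 1.5-fold of 3M for 61 of 67 genes, and within 2-fold for all 67. The genes whose interval reached beyond 1.5-fold at 24M included Prpf39, Prpf4b, Snrpd2, Snrpf and Snrpn. Intervals within 1.3-fold were found for 36 genes at 24M. In sorted bulk cells, fewer transcripts per rod and fewer contributing cells cannot be told apart.

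In the edgeR fit of counts, most splicing genes lay slightly lower at 24M than at 3M. The log2 fold change at 24M against 3M was below 0 for 55 of 67 splicing genes, against 47.3% of all genes tested, and its median was -0.10, against 0.01 for all genes. The count below 0 was 46 of 67 at 12M, with a median of -0.04, and 39 of 67 at 18M, with a median of -0.03. Across 29 settings of the 24M comparison the count below 0 stayed between 49 and 60 genes and the median between -0.15 and -0.07. All of these settings use counts or CPM, and none uses TPM. On the TPM scale the direction differed. Most splicing genes, Hnrnpu and Hnrnpdl among them, averaged higher at 24M than at 3M, while most Snrp genes averaged lower. Hnrnpu had 405, 289, 167 and 369 TPM at 24M, against 309, 300, 267 and 201 TPM at 3M, so its libraries overlapped. No test was run on TPM, and the share of all genes that averaged higher on that scale was not counted. The lower levels at 24M given here are thus those of counts and CPM. At 24M, 11 genes had all 4 CPM values below all 4 CPM values of 3M, or 16.4% of the 67. Of all genes tested, 5.32% lay lower and 10.6% in either direction without overlap. The 11 genes were Hnrnpdl, Hnrnpk, Hnrnpm, Prpf18, Sf3b5, Sf3b6, Snrpa1, Snrpd1, Snrpd3, Snrpe and Srsf3. At 18M the libraries of 7 splicing genes did not overlap with 3M (13.7% of all genes), and at 12M this was so for 0 (5.09% of all genes).

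**Figure D2:**
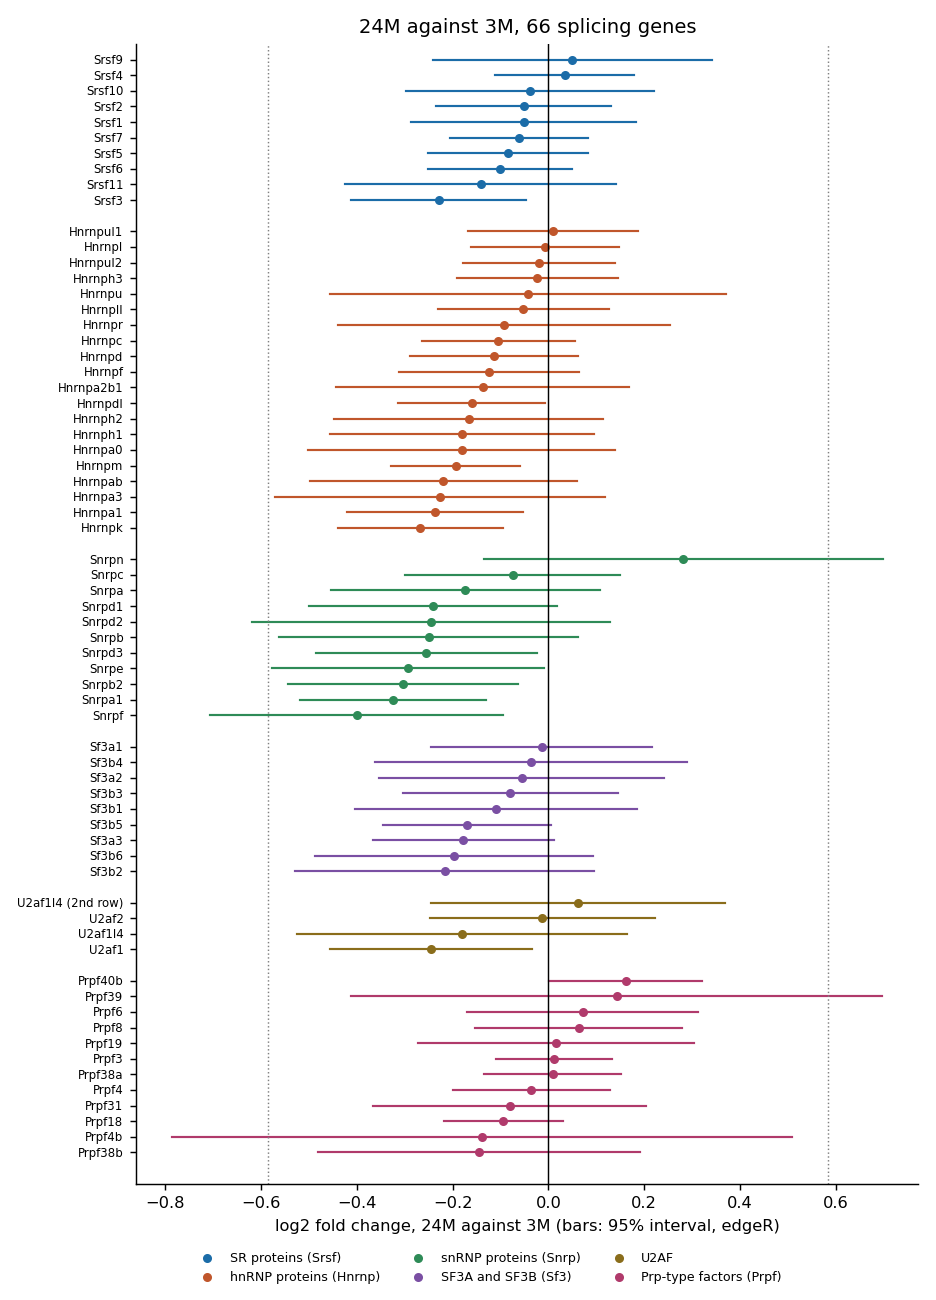
Log2 fold change at 24M against 3M (points) with its 95% interval from edgeR (bars) for 66 of the 67 tested splicing genes, by subfamily, with dotted lines at 1.5-fold. Points run between -0.40 for Snrpf and 0.28 for Snrpn, and 61 intervals stay between the dotted lines.

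SR proteins bind exonic enhancers through RNA recognition motifs and carry domains rich in arginine and serine. In the edgeR fit of counts, 8 of 10 of their genes lay below 0 at 24M, with a median log2 fold change of -0.06. On the TPM scale most of them averaged higher at 24M than at 3M. Srsf5 had 457, 462, 431 and 520 CPM at 24M, against 559, 481, 482 and 459 CPM at 3M. The groups overlapped, and the log2 fold change was -0.08 ± 0.08 (SE), with an adjusted p of 0.748 by edgeR. Srsf3, a small SR protein that also acts in mRNA export, is given because its values did not overlap and was picked out after they were seen. It had 103, 104, 110 and 108 CPM at 24M, against 130, 130, 114 and 124 CPM at 3M. Its log2 fold change was -0.23 ± 0.09 (SE), with an adjusted p of 0.196 by edgeR, and it was the lowest of the group. Srsf9 and Srsf4 were the 2 genes above 0, at 0.05 and 0.03.

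Of the hnRNP genes, 19 of 20 lay below 0 at 24M in the edgeR fit of counts, with a median log2 fold change of -0.13. At 12M and 18M the counts below 0 were 12 and 9 of 20. On the TPM scale Hnrnpa0, Hnrnpa1, Hnrnpab and Hnrnpk averaged lower at 24M than at 3M, and the rest of the 20 averaged higher. The TPM differences were not tested. Hnrnpu showed how widely a single library could move a gene: it had 1135, 1041, 677 and 1146 CPM at 24M, against 1235, 1131, 944 and 809 CPM at 3M. The lowest of these was 24M replicate 3, the groups overlapped, and the log2 fold change of -0.04 ± 0.19 (SE) turned to 0.10 without that library. Hnrnpk and Hnrnpm, picked out after their values were seen because other settings called them, varied less. Hnrnpk had 349, 390, 327 and 357 CPM at 24M, against 449, 435, 408 and 420 CPM at 3M, so that every 24M library was below every 3M library. Its log2 fold change was -0.27 ± 0.08 (SE), with an adjusted p of 0.0849 by edgeR, and its slope of -0.012 log2 units per month had the lowest adjusted p of the linear term, 0.0554. Hnrnpm had 295, 292, 262 and 292 CPM at 24M, against 332, 336, 325 and 313 CPM at 3M. Its means at 12M and 18M, 325 ± 8.6 and 332 ± 7.8 CPM, were close to the 3M mean of 326 ± 10.1 CPM, and the log2 fold change at 24M was -0.19 ± 0.06 (SE; adjusted p = 0.121, edgeR). Hnrnpk shares 33.4% of its coding 31-mers with other genes, above all a processed pseudogene. Hnrnpm shares 27.8% with the neighbouring gene March2. In both cases reads could be divided between the genes.

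The proteins of the small nuclear ribonucleoproteins had the lowest median of the 6 groups at 24M, -0.25, and 10 of 11 genes were below 0. With the length slope in the fit the median was -0.15, above the -0.18 of the hnRNP genes. They also lay below 0 in 10 of 11 genes at 12M and at 18M, with medians of -0.16 and -0.09. The 3 lowest splicing genes of all belonged here. Snrpf, one of the Sm proteins that form the ring around the small nuclear RNAs, had 10.6, 10.2, 14.3 and 11.2 CPM at 24M, against 14.1, 14.6, 16.1 and 16.5 CPM at 3M. Only 24M replicate 3 reached into the range of 3M. The log2 fold change was -0.40 ± 0.14 (SE), or 0.758-fold with a 95% interval of 0.613 to 0.936, with an adjusted p of 0.166 by edgeR. Without 24M replicate 3 it was -0.52 with an adjusted p of 0.0488. The Snrpf value is uncertain for another reason: 92.1% of its coding 31-mers also occur in transcripts of other genes, above all Ccdc38, which overlaps it on the opposite strand, and no source used here names the strand setting of the counting.

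Snrpa1 encodes the A' protein of the U2 particle, which binds the U2 small nuclear RNA together with the B'' protein encoded by Snrpb2. Snrpa1 had 14.3, 14.4, 15.8 and 16.7 CPM at 24M, against 19.0, 20.5, 18.4 and 18.7 CPM at 3M. All 24M values were below all 3M values. The log2 fold change was -0.33 ± 0.09 (SE), or 0.798-fold with a 95% interval of 0.698 to 0.913, and the adjusted p was 0.0593 by edgeR, 0.0158 by DESeq2 and 0.0319 by edgeR without 12M replicate 4. Snrpb2 had 10.2, 11, 10.3 and 11.8 CPM at 24M, against 14.3, 14.2, 11.2 and 13.8 CPM at 3M. Its groups overlapped through 1 library at 3M, and the log2 fold change was -0.30 ± 0.11 (SE; adjusted p = 0.187, edgeR). Snrpb had 48.6, 57.9, 66.9 and 46.3 CPM at 24M, against 62.7, 64.4, 65.7 and 68.4 CPM at 3M. Its 24M values were spread over a far wider range than those of 3M, and the log2 fold change was -0.25 ± 0.15 (SE; adjusted p = 0.505, edgeR). Snrpd3, another ring protein picked out after its values were seen, averaged 22.0 ± 1.5, 17.8 ± 2.6, 18.4 ± 2.0 and 18.4 ± 1.1 CPM at 3M, 12M, 18M and 24M. It had the lowest adjusted p of the splicing genes at 12M (0.287) and at 18M (0.334). Snrpn, an imprinted gene whose product replaces Sm protein B in neurons, was the exception above 0. It had 11.3, 16.7, 10.9 and 13.6 CPM at 24M, against 15.2, 8.56, 10.8 and 8.44 CPM at 3M. The groups overlapped, and the log2 fold change was 0.28 ± 0.20 (SE; adjusted p = 0.605, edgeR). Snrpn shares 34.5% of its coding 31-mers with other genes.

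**Figure D3:**
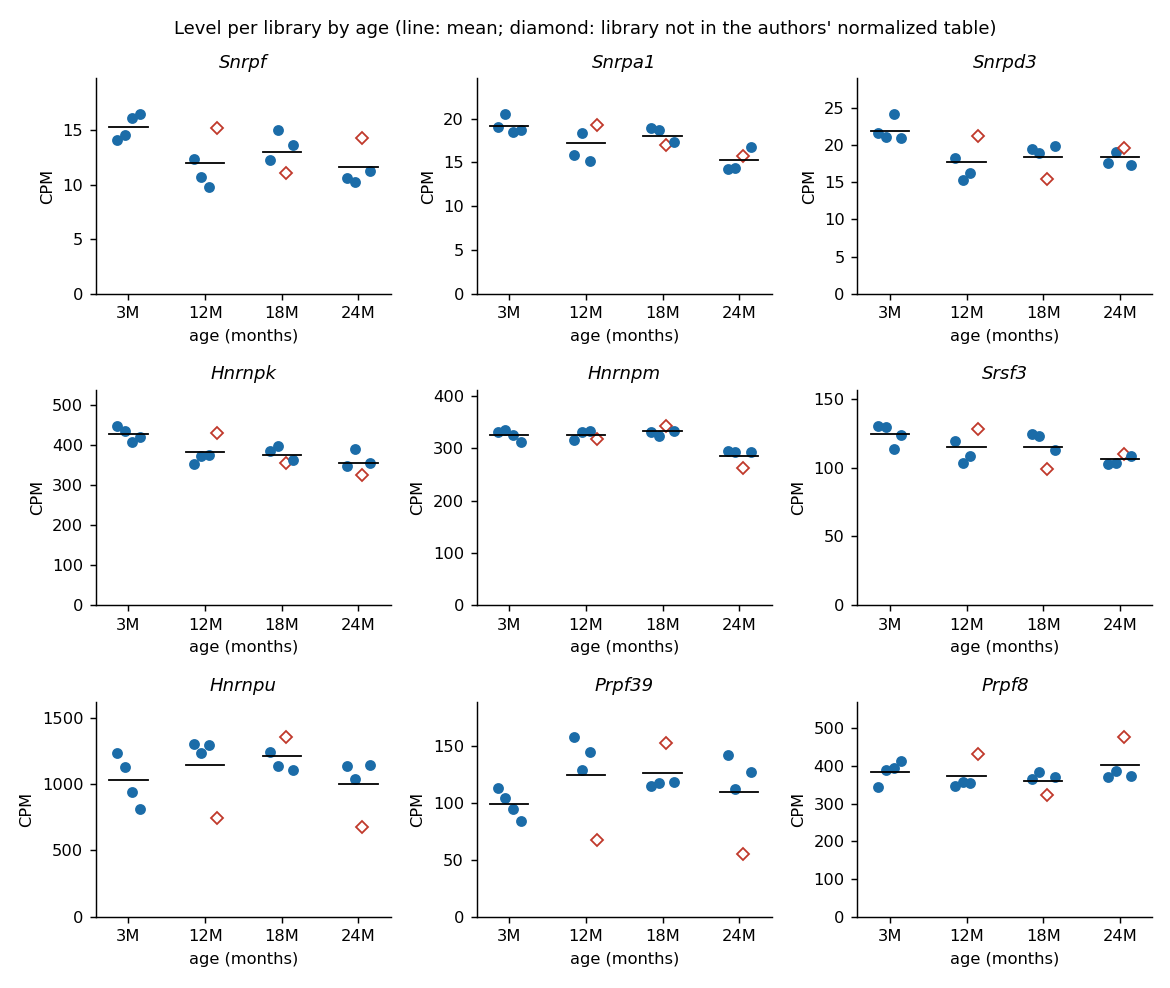
CPM of 9 splicing genes per library at 3M, 12M, 18M and 24M (points, with the mean of each age as a line). Open diamonds are 12M replicate 4, 18M replicate 3 and 24M replicate 3. In Hnrnpu, Prpf39 and Prpf8 a diamond is the most distant point at 12M, 18M and 24M, while Snrpa1 at 24M is below 3M in every library.

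The SF3A and SF3B complexes belong to the U2 particle and hold the branch point. All 9 genes lay below 0 at 24M in the edgeR fit of counts, with a median log2 fold change of -0.11. When the length slope was added to the fit, 5 of 9 did. On the TPM scale most of the 9 averaged higher at 24M than at 3M. Sf3b2 had 285, 344, 400 and 289 CPM at 24M, against 333, 379, 397 and 421 CPM at 3M. The groups overlapped, and the log2 fold change was -0.22 ± 0.15 (SE), with an adjusted p of 0.593 by edgeR. Sf3b4 had the lowest values of the group at the ages between, -0.27 at 12M and -0.32 at 18M, but -0.04 at 24M.

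U2AF recognises the end of the intron, its large subunit (U2af2) through the polypyrimidine tract and its small subunit (U2af1) through the splice site itself. U2af2 had 99.4, 97.8, 135 and 96.9 CPM at 24M, against 89.6, 107, 118 and 120 CPM at 3M. The groups overlapped, and the log2 fold change was -0.01 ± 0.11 (SE; adjusted p = 0.983, edgeR). U2af1 had a log2 fold change of -0.24 at 12M and -0.25 at 24M, with adjusted p of 0.435 and 0.243 by edgeR. It shares 58.7% of its coding 31-mers with other genes, above all a processed pseudogene. The other U2AF-related rows, both under the symbol U2af1l4, had log2 fold changes of -0.18 and 0.06 at 24M. The second of them, ENSMUSG00000109378, had 0 counts in protein-coding transcripts.

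The Prpf genes, named after yeast pre-mRNA processing mutants, lay on both sides of 0 at 24M: 6 of 13 were below 0, between 5 and 9 over the 29 settings, and the median log2 fold change was 0.01. The difference from the other groups was not tested. Prpf40b, related to a yeast factor of the U1 particle, had 115, 105, 126 and 112 CPM at 24M, against 93.3, 96.4, 110 and 108 CPM at 3M. The groups overlapped, and the log2 fold change was 0.16 ± 0.07 (SE; adjusted p = 0.347, edgeR). Prpf39, also related to a yeast U1 factor, had 142, 112, 55.6 and 127 CPM at 24M, against 113, 104, 94.2 and 84.5 CPM at 3M. The value of 24M replicate 3 was less than any at 3M, and the log2 fold change of 0.14 ± 0.26 (SE; adjusted p = 0.894, edgeR) was 0.36 without that library. Prpf38b, related to a yeast factor that joins with the tri-snRNP, had 229, 194, 130 and 213 CPM at 24M, against 235, 219, 201 and 192 CPM at 3M, and its log2 fold change was -0.15 ± 0.16 (SE), with an adjusted p of 0.790 by edgeR. The kinase gene Prpf4b and Prpf39 were among the splicing genes with the largest spread within an age, an SD of 0.51 and 0.43 log2 units, against a median of 0.16. Their lowest values of all were those of 24M replicate 3.

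None of the 5 retinitis pigmentosa genes of the tri-snRNP passed the test at 24M by edgeR on the 16 libraries, and 0 had an unadjusted p under 0.05. Prpf3 was the steadiest, with 64.9, 67.9, 63.3 and 68.0 CPM at 24M, against 66.5, 65.0, 63.7 and 66.8 CPM at 3M. Its fold change was 1.01 with a 95% interval of 0.926 to 1.10. Prpf4 had 37.5, 37.5, 40.2 and 39.3 CPM at 24M, against 36.8, 38.4, 40.7 and 42.6 CPM at 3M, which gave 0.976-fold (0.871 to 1.09). Prpf8, the central protein of the U5 particle, had 371, 387, 475 and 374 CPM at 24M, against 343, 390, 393 and 413 CPM at 3M, which gave 1.04-fold (0.899 to 1.21). Prpf6 had 103, 111, 121 and 96.2 CPM at 24M, against 89.8, 101, 101 and 118 CPM at 3M, which gave 1.05-fold (0.889 to 1.24). Prpf31 had 69.2, 83.1, 104 and 77.5 CPM at 24M, against 81.1, 85.2, 92.5 and 94.1 CPM at 3M, which gave 0.946-fold (0.776 to 1.15). The libraries of 24M and 3M overlapped for all 5 genes, and the adjusted p-values by edgeR lay between 0.875 and 0.969. For Prpf3, Prpf4, Prpf6 and Prpf8 a difference of 1.3-fold or more lies outside the 95% interval of the edgeR fit of counts. On the TPM scale, which was not tested and has no such interval, these genes averaged higher at 24M than at 3M. Prpf31 depended on the libraries: its log2 fold change of -0.08 was -0.20 without 24M replicate 3 (adjusted p = 0.359, edgeR), and it was called lower in the 13 libraries that the authors normalized (-0.20, adjusted p = 0.0494, edgeR) and with quality weights (-0.20, adjusted p = 0.0438, limma).

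How many splicing genes passed the threshold depended on the libraries and on the length slope. With the 13 libraries of the authors' normalized table, edgeR called 1 splicing gene higher (Prpf39) and 17 lower at 24M. That is 26.9% of the splicing genes against 23.6% of all genes, of which 12.2% were called higher and 11.4% lower. Among the 17 were Snrpf at -0.51 (adjusted p = 0.00313), Snrpb at -0.36 (adjusted p = 0.0209) and Snrpa1 at -0.34 (adjusted p = 0.0152). In these 13 libraries the length slopes were -0.041 to -0.016 at 3M, 0.027 to 0.075 at 12M, -0.044 to 0.00053 at 18M and -0.00024 to 0.049 at 24M, so that all slopes of 12M and 24M lay above all of 3M. With the slope added as a covariate to the same 13 libraries, 0 splicing genes and 3.01% of all genes were called at 24M. At an unadjusted p under 0.05 there were 7 (10.4%, against 14% of all genes). The log2 fold changes in that fit were -0.35 for Snrpf, 0.04 for Snrpb and -0.31 for Snrpa1. With the slope as a covariate in all 16 libraries, 11 splicing genes were called lower and 0 higher, 16.4% of them against 11.4% of all genes in either direction and 5.28% lower. Of the 18 genes called in the 13 libraries and these 11, 3 were shared (Hnrnpk, Snrpa1 and Snrpf), 16.7% of the first list and 27.3% of the second. In the 13 libraries the slope and the age difference of 12M or 24M from 3M cannot be told apart. Sample quality weights (limma's voom) in all 16 libraries gave 21 calls among the splicing genes at 24M, 31.3% against 27.2% of all genes. At 12M they gave 29 calls (43.3%, against 47.9% of all genes) and the 13 libraries 24 (35.8%, against 38.4%). Once the slope was added, 0 splicing genes were called at 12M in the 16 libraries (2.05% of all genes) or in the 13 (0.448%). At an unadjusted p under 0.05 there were then 4 in the 16 libraries (5.97%, against 11.3% of all genes). In the 13 there were 2 (2.99%, against 8.14%). At 18M no splicing gene was called in any of the 29 settings, the quality weights and the 13 libraries included.

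**Figure D4:**
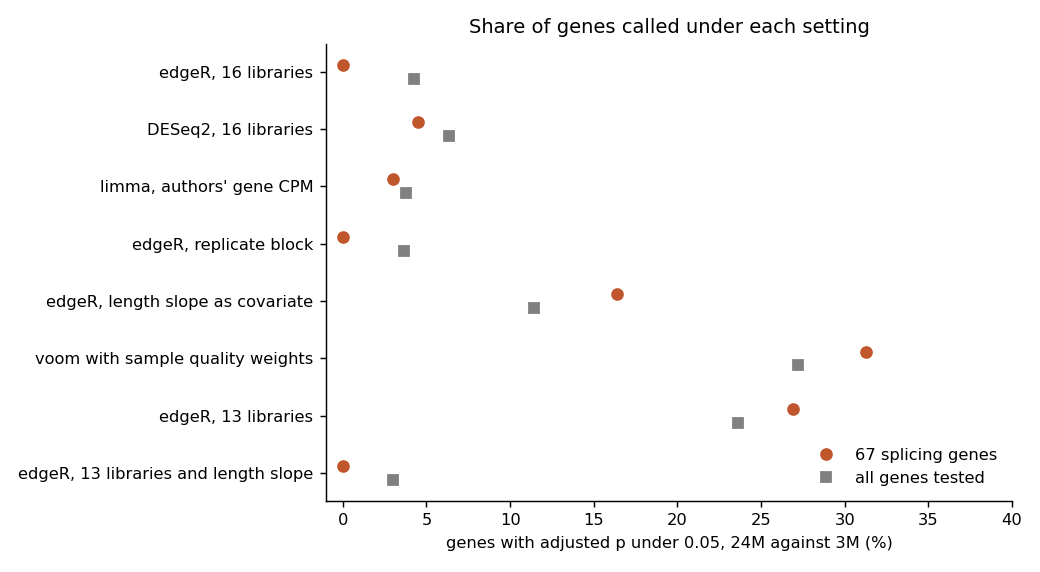
Percentage of genes with an adjusted p under 0.05 at 24M against 3M under 8 settings, for the 67 splicing genes (circles) and for all genes tested (squares). The shares are 0% and 4.25% in the 16 libraries, 26.9% and 23.6% in the 13 libraries, and 0% and 3.01% in the 13 libraries with the length slope.

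The authors' deposited table, which gives 1 F statistic per gene for any difference among ages, held 68 rows of the splicing set. In it 20 of them (29.4%) had an adjusted p under 0.05, against 26.7% of the 11826 genes of that table. At 24M, 18 of the 20 lay below 0 and 2 above, Prpf39 and Prpf40b. For Snrpf the authors' deposited table gave log2 differences of -0.48 at 12M, -0.18 at 18M and an adjusted p of 0.00690. The file headers do not name the libraries behind it. Of the 18 genes that edgeR called at 24M in the 13 libraries, 16 (88.9%) were among the 20 (80%). The 2 tests are unlike, because the authors' F statistic covers all ages and the 18 rest on 24M alone. The F-test by edgeR on the 13 libraries called 21 splicing genes. Both sources draw on libraries of this study, so their calls are not independent.

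The count table is given per transcript, so the isoforms of these genes could be described too. Protein-coding transcripts held 66.7% of the counts of these genes, and the rest went to transcripts that GENCODE puts in other classes. Retained-intron transcripts held 15.4% of the splicing genes' counts, nonsense-mediated decay transcripts 10.7% and processed transcripts 7.2%, as means over the 16 libraries. The non-coding share was 32.5 ± 0.91%, 33.7 ± 2.1%, 34.0 ± 0.98% and 33.1 ± 1.6% at 3M, 12M, 18M and 24M (SD, n = 4 each). Over all protein-coding genes it was 19.0 ± 0.59%, 19.5 ± 0.93%, 19.8 ± 0.81% and 19.8 ± 0.49%. The share was higher for the splicing genes in all 16 libraries. It was highest at 18M, where it ran from 33.2% to 35.1%, against 31.5% to 33.7% at 3M, so that the libraries overlapped; the 24M and 3M libraries also overlapped. It was 0% in genes with coding transcripts alone, such as Snrpf and Sf3b2. Among genes with coding counts it was highest in Hnrnpll, with 91.6 ± 1.6% at 24M and 92.1 ± 2.9% at 3M. The second U2af1l4 row (ENSMUSG00000109378) had 0 coding counts and a share of 100% at every age. In Hnrnpu the decay transcript Hnrnpu-206 held 49.4% of the gene's counts at 24M and 52.8% at 3M. In Hnrnpl the retained-intron transcript Hnrnpl-206 held 58.9% at 24M and 55.9% at 3M. These are estimates of reads shared among overlapping isoforms in total RNA, which also holds unspliced RNA.

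The sequences below show where the reading frame of such transcripts ends. Each is the start of an exon that no coding transcript of the gene overlaps, read from GENCODE M21 transcripts (GRCm38) up to the first in-frame stop codon as annotated, which is in capitals. Of 8 such exons found in decay transcripts with a mean of at least 50 counts, 4 are printed, from an SR, an hnRNP, an snRNP and an SF3B gene.
Srsf3 (chr17:29039454-29039487, plus strand): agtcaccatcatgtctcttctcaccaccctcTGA
Hnrnpl (chr7:28817335-28817393, plus strand): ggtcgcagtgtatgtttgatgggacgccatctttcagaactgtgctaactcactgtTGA
Snrpb (chr2:130176695-130176752, minus strand): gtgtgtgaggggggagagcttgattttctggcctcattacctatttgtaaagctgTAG
Sf3b1 (chr1:55014905-55014924, minus strand): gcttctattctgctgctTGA

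The transcript with the Srsf3 exon held 17.7 ± 3.4% of the counts of Srsf3 at 24M and 17.6 ± 2.1% at 3M (SD, n = 4 each). The one with the Sf3b1 exon held 7.27 ± 0.57% at 24M and 6.95 ± 0.25% at 3M, and the one with the Snrpb exon 5.42 ± 1.3% at 24M and 4.59 ± 0.94% at 3M. In all 3 the libraries of the 2 ages overlapped. The Hnrnpl transcript held 4.01%, 2.53%, 4.34% and 4.13% at 24M, against 5.77%, 5.52%, 4.97% and 5.39% at 3M. These values did not overlap, and how many decay transcripts of all genes did so was not counted. The Hnrnpl transcript is the gene's only decay transcript in the annotation. Its log2 ratio to the coding counts differed by -0.50 ± 0.21 (SE) at 24M, with an adjusted p of 0.534 by limma, which is not a call. The choice of printed exons was not fixed in advance. Another hnRNP exon that was found, in Hnrnpll, had more counts, and its shares at 24M and 3M overlapped. For the whole gene Hnrnpl the log2 fold change was -0.01 ± 0.07 (SE), with an adjusted p of 0.986 by edgeR.

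In the test of the ratio of non-coding to coding counts, 47 splicing genes had enough counts in both classes. At 24M against 3M, 1 was called higher and 0 lower by limma with Benjamini-Hochberg adjustment over 5984 genes, of which 0.318% were called in either direction and 0.134% higher. At an unadjusted p under 0.05 there were 3 (6.38%, against 10.1% of all genes). The log2 ratio change was above 0 in 29 of 47 and had a median of 0.09, against 0.07 over all genes tested. Decay transcripts alone against coding ones could be tested in 25 splicing genes. Of these, 0 were called by limma, against 0.12% of all 1664 genes. At an unadjusted p under 0.05 there were 3 (12%, against 7.57% of all genes).

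The gene called was Prpf4, which encodes a tri-snRNP protein bound to Prpf3 and whose total level was given above. Its non-coding share was 5.84%, 5.49%, 5.72% and 6.69% at 24M, against 2.85%, 3.39%, 3.45% and 4.07% at 3M. Every 24M library was above every 3M library, and the means of 12M and 18M, 4.19 ± 0.71% and 4.79 ± 0.57%, lay between. The log2 change of the ratio was 0.82 ± 0.15 (SE), with an adjusted p of 0.0230 by limma. The share rests on 1 short transcript, Prpf4-202, with 55.2, 42.5, 59.3 and 78.3 estimated counts at 24M and 29.2, 35, 34.9 and 40.6 at 3M, beside 731 to 1093 counts of the coding transcript Prpf4-201 at 24M and 958 to 998 at 3M. The call was lost when any 1 of 6 libraries was left out, 3M replicates 1, 2 and 3 and 24M replicates 1, 2 and 4, with adjusted p between 0.050 and 0.0948, while the log2 change stayed between 0.74 and 0.91. Prpf4-202 keeps intron 11 of Prpf4-201, printed here with its first and last 2 bases, the splice sites, in capitals because it is the feature that sets the transcript apart.
Prpf4 intron 11 (chr4:62422301-62422414, plus strand, GRCm38, from GENCODE M21): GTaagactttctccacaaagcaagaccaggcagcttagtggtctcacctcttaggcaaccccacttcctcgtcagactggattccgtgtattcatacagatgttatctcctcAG

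**Figure D5:**
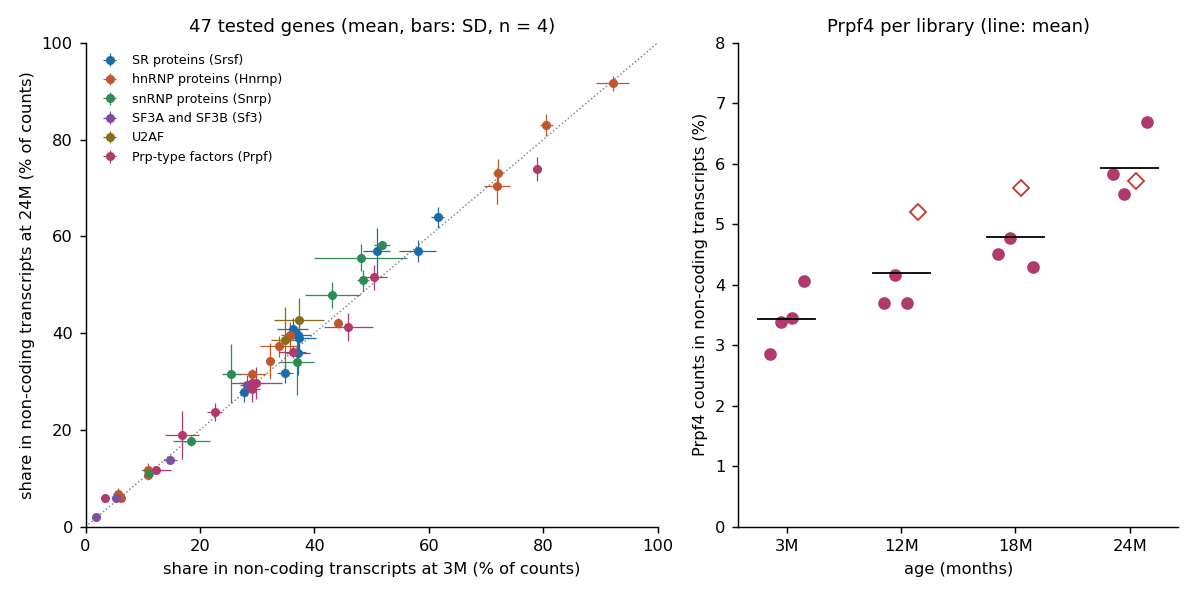
Left, share of a gene's counts in non-coding transcripts at 24M (vertical axis) and at 3M (horizontal axis) for the 47 tested splicing genes (mean, bars are the SD, n = 4), with a dotted line of equal shares. Right, the share of Prpf4 per library at 3M, 12M, 18M and 24M (line, mean; diamonds, the 3 libraries outside the authors' normalized table), where all 24M values of 5.49% to 6.69% lie above all 3M values of 2.85% to 4.07%.

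Other genes of splicing, from lists of further snRNP and LSM proteins, step factors, SMN complex, SR protein kinases, tissue regulators, minor spliceosome and exon junction complex, were 169, of which 155 were tested. At 24M against 3M, 0 were called higher and 1 lower by edgeR, with 16 at an unadjusted p under 0.05, a median log2 fold change of -0.05 and 101 below 0. Of all 12177 genes tested, 4.25% were called, 195 genes of them lower, and 14% had an unadjusted p under 0.05. The share of all genes below 0 is given above with the 24M values. The 1 called gene of these lists was Rbm8a, which encodes the exon junction protein Y14. It had 26.7, 29.2, 32.2 and 25.6 CPM at 24M, against 36.1, 35.7, 36.0 and 39.6 CPM at 3M, with a log2 fold change of -0.37 ± 0.10 (SE) and an adjusted p of 0.0457 by edgeR. All its 24M libraries were below all 3M libraries, as was so for 5.32% of all genes tested. Of the lists, the LSM proteins had the lowest median, -0.12 with 9 of 11 tested genes below 0, and tissue-restricted regulators the highest, 0.03 with 12 of 31 below 0.

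Sequence shared with other genes limits how far single members can be read. Of the 68 splicing genes with a coding transcript, 28 shared over 10% of their coding 31-mers with transcripts of other genes on either strand, and 7 shared over 50%: Snrpf, U2af1l4, Srsf4, Hnrnpf, U2af1, Sf3b4 and Hnrnpa1. The median was 7.44%. Of the genes described above, Srsf3 shared 37.6% and U2af2 39.2%. An annotated gene on the opposite strand overlapped 28 of the 69.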

How the data were processed

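Total RNA of sorted rods was sequenced in 16 libraries. The authors deposited estimated counts per transcript, a signal of gene CPM, a signal of normalized CPM for 13 libraries, and a table that gives, per the file headers, log2 differences from 3M, an F statistic as a score, and a p-value and adjusted p-value. Per the submitters' processing notes, the tools were edgeR 3.13.9, kallisto 0.42.5 and limma 3.32.2 and the build was GRCm38.p4; no roles are given. Estimated counts of 111896 of 113468 transcripts were summed to 45038 genes by GENCODE M21 identifiers and rounded. The 12177 genes that reached 5 CPM in 4 or more libraries were tested with edgeR 4.0.16 in R 4.3.3 (TMM, a mean per age, all 16 libraries). Intervals are 95% and come from the fitted standard errors.

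The non-coding share was tested with limma 3.58.1 on log2 of (non-coding + 0.5)/(coding + 0.5) for genes with a mean of at least 20 counts in each class. DESeq2 1.42.0, voom with sample quality weights, other filters and scalings, the authors' CPM (log2 with pseudocounts of 0.5 and 2), a replicate block, a length slope per library, the 13 libraries and each library left out were alternatives. The combination of the 13 libraries with the slope was chosen after seeing the data. Scripts were tested on simulated data. The members and lists were chosen with earlier results of these data known. Named were the 3 highest and 3 lowest fold changes at 24M, the top gene by TPM of each subfamily, the 5 retinitis pigmentosa genes and genes past a threshold; others are marked as picked out after their values were seen. The p-values measure the spread between these libraries. No 2 libraries agreed within sampling noise (lowest chi-square per degree of freedom 5.80). No pairing by replicate number was assumed in the main fit. Of 24 same-numbered pairs, 11 had a correlation of deviations over 0.1, with a range of -0.74 to 0.73. This count cannot exclude a pairing. Single-gene values of 1 member and 1 marker are not reported here; both stay in the counts.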

Additional observations from a re-analysis of the deposited data

Results flagged for a closer look

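In 9 of 72 groups of 4 libraries of the named splicing genes, 1 library lay far from the other 3 by Dixon's criterion, which chance meets in about 1 group in 20. In 12M replicate 4 these were Hnrnpu with 747 CPM (the others 1236 to 1300), Prpf38b with 177 CPM (233 to 240), Sf3b2 with 440 CPM (284 to 299), Prpf31 with 105 CPM (71.9 to 73.9) and Prpf8 with 431 CPM (345 to 358). In 18M replicate 3 these were Prpf39 with 153 CPM (115 to 118) and Prpf38b with 276 CPM (202 to 210). In 24M replicate 3 these were U2af2 with 135 CPM (96.9 to 99.4) and Prpf8 with 475 CPM (371 to 387). All 9 values came from the 3 libraries that are not in the authors' normalized table. The 72 groups draw on the same 16 libraries and are not independent, so 9 of 72 cannot be tested against the rate of 1 in 20. Values stood on both sides of the other libraries within 12M replicate 4, Hnrnpu and Prpf38b below them and Sf3b2, Prpf31 and Prpf8 above them. The cause was not tested.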

How the results depend on the processing

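The count of splicing genes called was 0 in every expression test by edgeR on the 16 libraries as reported, and with the replicate block. Under the block, 10 had an unadjusted p under 0.05 at 24M (14.9%, against 13.2% of all genes). The Prpf4 ratio kept its call there (adjusted p = 0.0430, limma). At 12M the count called was 5 higher and 24 lower with quality weights, and 4 higher and 20 lower in the 13 libraries. At 24M it was 2 higher and 19 lower with quality weights, 1 higher and 17 lower in the 13 libraries, 11 lower with the length slope, 3 lower by DESeq2 (Hnrnpk, Hnrnpm and Snrpa1) and 2 lower from the authors' CPM with either pseudocount (Hnrnpk and Hnrnpm). The F-test called 27 with quality weights (40.3%, against 44.6% of all genes), 21 in the 13 libraries (31.3%, against 29%), 2 with the length slope (7.23% of all genes) and 1 by DESeq2 (5.46%). The linear term called 2 higher and 10 lower with quality weights (9.87% of all genes higher, 9.74% lower), 2 lower with the length slope (4.19% lower), and 1 lower by DESeq2 (2.87%), with DESeq2 size factors (2%) and from the authors' CPM with either pseudocount (1.83% and 1.88%). Leaving out 1 library gave 0 to 3 lower at 12M (3 without 12M replicate 4: Sf3a3, Snrpd3 and U2af1, 4.48% against 4.38% of all genes), 0 to 2 lower at 24M (2 without 12M replicate 4: Hnrnpk and Snrpa1, 5.95% of all genes; 1 without 24M replicate 3: Snrpf, 5.24%) and 0 to 1 lower for the linear term (Hnrnpk without 12M replicate 1 or 24M replicate 2, 4.8% and 3.78%). The higher non-coding share of Prpf4 was 0 to 1 genes with a library left out, 0 with decay transcripts alone, of which Prpf4 has none, and 0 with a mean of at least 100 counts, which Prpf4 does not reach.

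The sign at 24M changed in 38 of 495 values of the named results, each time with an adjusted p above 0.05, and in 7 of the 18 it never did. With quality weights it was 0.0015 for Srsf5, 0.12 for Hnrnpu, 0.0019 for Prpf38b, -0.0075 for Prpf6 and -0.036 for Prpf8. In the 13 libraries it was 0.11 for Hnrnpu, 0.0020 for Prpf38b and -0.026 for Prpf8, and with the slope added 0.041 for Snrpb. With the slope in 16 libraries it was -0.17 for Prpf39, 0.047 for U2af2, -0.0033 for Prpf3 and 0.021 for Prpf31. From the authors' CPM with pseudocounts of 0.5 and 2 it was 0.023 and 0.023 for U2af2, -0.029 and -0.028 for Prpf3, 0.11 and 0.10 for Prpf4, and -0.038 and -0.038 for Prpf6. Prpf3 was -0.0071 with a minimum of 1 CPM and -0.0064 with no filter. With 1 library left out the values ran from -0.0099 to 0.36 for Prpf39, -0.14 to 0.10 for Hnrnpu, -0.14 to 0.038 for U2af2, -0.24 to 0.00098 for Prpf38b, -0.0030 to 0.031 for Prpf3, -0.070 to 0.00069 for Prpf4 and -0.027 to 0.10 for Prpf8. The cause was not tested. The precision is limited by 4 libraries per age, with a median spread of 0.16 log2 units within an age.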
